A study of Homo sapiens with 6 samples.

Results

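Inhibitors of cyclin-dependent kinases (CDKs) and the D-type cyclins were followed in DU145 prostate cancer cells stimulated with HGF. The list holds 10 genes, which are CDKN1A, CDKN1B, CDKN1C, CDKN2A, CDKN2B, CDKN2C, CDKN2D, CCND1, CCND2 and CCND3. A gene was read through each probe set whose platform annotation gives that gene as its only symbol. In this way 9 of the 10 genes were found, with 22 of the 41091 probe sets that carry 1 gene symbol, and CDKN2C was not analysed here. DU145 is an established cell line from a brain metastasis of prostate cancer that has lost RB. The cells were kept in RPMI medium with charcoal-treated serum and then received vehicle or hepatocyte growth factor (HGF), the ligand of the receptor c-MET, at 25 ng/ml. RNA was taken after 2, 8 and 24 hours, and 1 Affymetrix U133plus2.0 array was hybridised for each of the 6 conditions, so no condition has a replicate. All arrays come from 1 cell line in culture.

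D-type cyclins bind CDK4 and CDK6 in early G1 and start the phosphorylation of RB, which otherwise holds E2F transcription factors in check. The INK4 inhibitors (CDKN2A to CDKN2D) bind CDK4 and CDK6 themselves, while the Cip/Kip inhibitors (CDKN1A to CDKN1C) bind cyclin-CDK complexes, CDK2 complexes among them. CDKN1A, the gene of p21, is transcribed in response to DNA damage and to growth factor signals. In cells without RB, CDK4 and CDK6 activity is largely dispensable for entry into S phase and p16, a product of CDKN2A, is commonly high.

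The probe set values are linear intensities. Here the mean of every array was set to 150 and anything under 30 was raised to that floor before log2 was taken, so where 1 of the arrays compared is at the floor a ratio gives only a bound. Scaled intensities are given before the floor, and levels of different probe sets are not comparable. From 33.1% (HGF at 8 hours) to 36.7% (vehicle at 8 hours) of probe sets per array exceeded the floor, so the 2 arrays compared at 8 hours were the extremes. The ACTB 3'/5' control ratio, a measure of RNA integrity and labelling, lay between 1.13 and 1.17 at 2 hours, between 1.31 and 1.36 at 8 hours and between 1.63 and 1.71 at 24 hours. The poly-A spike DapX-3 ranged from 701 to 2322, with vehicle at 8 hours the lowest. All 5 epithelial markers (KRT8, KRT18, KRT19, CDH1 and EPCAM) were above the floor, against 0 of 3 leukocyte, 0 of 3 endothelial and 1 of 5 fibroblast markers and 1 of 3 genes of the androgen receptor axis. The fibroblast marker was COL1A1, with 47.3 to 97.3 in the 2 of its 5 probe sets that were above the floor in all arrays. The gene of the androgen axis was KLK3, with 39.5 to 110.1 in 231629_x_at and its other 2 probe sets at the floor. In RNA from a whole culture, fewer cells of a type and less RNA per cell cannot be told apart.

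Of the 22 probe sets 10 exceeded the floor in 1 or more arrays, 8 of these in all 6 arrays, and 12 were at the floor throughout. CDKN1A, CDKN1B, CDKN2A, CDKN2B, CCND1 and CCND3 each had a probe set above the floor in all arrays. CDKN1C and CDKN2D were near the floor, and CCND2 was at the floor with all 4 of its probe sets, the highest scaled value being 17.5.

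**Figure D1:**
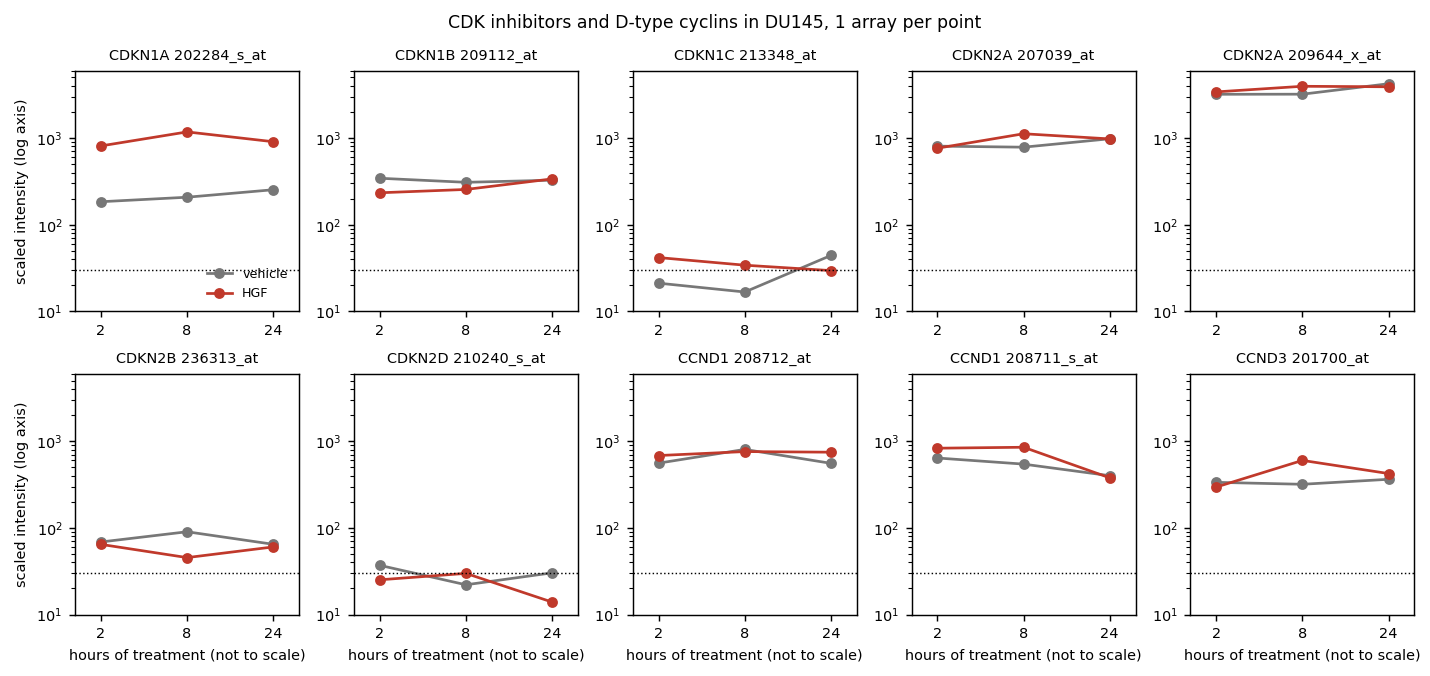
Scaled intensity (log axis) of the 10 probe sets above the floor of 30 (dotted line) in at least 1 array, at 2, 8 and 24 hours with vehicle (grey) or HGF (red), 1 array per point. CDKN1A lies between 811.5 and 1178 with HGF and between 184.1 and 253.2 with vehicle. In CDKN2B (236313_at) HGF is below vehicle at each time, with 90.2 for vehicle and 45.4 for HGF at 8 hours. The lines of the other probe sets cross.

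CDKN1A was higher with HGF at every time. Its probe set (202284_s_at, the only one for this gene) gave 184.1, 207.6 and 253.2 in the vehicle arrays of 2, 8 and 24 hours. The HGF arrays gave 811.5, 1178 and 907.4. The lowest HGF array was thus above the highest vehicle array, and the groups did not overlap. HGF gave a 4.41-fold higher value at 2 hours, a 5.67-fold higher one at 8 hours and a 3.58-fold higher one at 24 hours. These are log2 ratios of 2.14, 2.50 and 1.84. They ranked 3 of 10159 genes, 1 of 10460 and 15 of 10229 in the same comparisons. By contrast, the vehicle arrays differed from one another by log2 ratios of 0.17 (8 over 2 hours), 0.46 (24 over 2 hours) and 0.29 (24 over 8 hours), and the HGF arrays by 0.54, 0.16 and -0.38. The SD of the log2 values over the 3 times was 0.23 with vehicle and 0.28 with HGF (n = 3 arrays each).

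The 250 bases before the start of CDKN1A are shown because this member had the ratios described above, and those of CDKN1B are shown for contrast within the Cip/Kip family. Both are RefSeq sequences on the plus strand of GRCh38.p14, at chr6:36678464-36678713 for CDKN1A, a start within the annotated gene, and chr12:12717118-12717367 for CDKN1B, read 5′ to 3′. Capitals mark GC boxes (GGGCGG), the letters that Sp1-family factors bind.
CDKN1A: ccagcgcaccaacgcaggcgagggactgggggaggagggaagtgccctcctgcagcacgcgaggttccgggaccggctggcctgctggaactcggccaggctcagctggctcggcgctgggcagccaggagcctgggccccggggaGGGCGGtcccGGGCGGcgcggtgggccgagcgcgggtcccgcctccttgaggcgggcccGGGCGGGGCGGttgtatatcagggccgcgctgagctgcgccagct
CDKN1B: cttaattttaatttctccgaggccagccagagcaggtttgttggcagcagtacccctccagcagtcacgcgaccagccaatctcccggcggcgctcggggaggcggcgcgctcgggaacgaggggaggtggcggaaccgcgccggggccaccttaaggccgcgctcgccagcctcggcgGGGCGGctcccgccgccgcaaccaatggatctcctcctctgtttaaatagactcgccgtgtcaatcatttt
The CDKN1A window held 4 GC boxes, the first from 104 to 99 and the last from 40 to 35 bases upstream, and the last and its neighbour share 1 base. CDKN1B held 1, from 71 to 66 bases upstream. On either strand the letters occur at least once in 42.6% of all 35116 windows of this length. The CDKN1A and CDKN1B windows held none of the TATA box letters TATAAA (10.7% of windows), the AP-1 letters TGACTCA (4.20%), the cAMP response element TGACGTCA (1.65%), the E-box CACGTG (6.34%) or the EGR1 letters GCGGGGGCG (4.72%). GC content was 76.4% and 64.4%. RefSeq windows were listed for 7 of the 10 genes, 12 windows in all. A window of CCND3 and a window of CDKN2C held 5 GC boxes each, more than that of CDKN1A. The other windows of these genes held 0 to 2, so many GC boxes are not particular to CDKN1A. A match of letters is a description and not a binding site, and a missing match says nothing of sites outside the window.

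CDKN1B, the gene of p27, did not pass the fold rule described below at any time. Its probe set (209112_at) read 343.7, 308.5 and 326.4 under vehicle after 2, 8 and 24 hours and 233.6, 255.2 and 337.7 under HGF. The HGF arrays of 2 and 8 hours lay below all vehicle arrays and that of 24 hours lay among them, so the groups overlapped. The log2 ratios were -0.56, -0.27 and 0.05, against -0.16 to 0.08 between vehicle arrays. The ratio at 2 hours, 1.47-fold lower, ranked 147 from the bottom of 10159 genes. CDKN1C, the gene of p57, is the remaining Cip/Kip inhibitor. Only 213348_at of its 5 probe sets left the floor, in 3 arrays. It gave 21.2, 16.7 and 44.2 in the vehicle arrays (2, 8 and 24 hours) and 41.8, 34.1 and 29.5 in the HGF arrays. As bounds, HGF was at least 1.39-fold higher at 2 hours and at least 1.14-fold higher at 8 hours, and at least 1.47-fold lower at 24 hours. The groups overlapped.

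Among the INK4 inhibitors, CDKN2A, which encodes p16 and p14ARF, was above the floor in all arrays. Its probe set 207039_at read 807.0, 784.6 and 981.2 under vehicle after 2, 8 and 24 hours and 763.8, 1121.5 and 977.7 under HGF. A second probe set, 209644_x_at, gave 3200.2, 3208.2 and 4236 with vehicle and 3410.7, 3959 and 3906 with HGF. In both probe sets the HGF array was higher at 8 hours, by log2 ratios of 0.52 and 0.30, and the groups overlapped. Over the gene's 3 probe sets, of which 211156_at was at the floor, the log2 ratios were 0.00, 0.27 and -0.04. Since x_at probe sets can match related transcripts, CDKN2A values from 209644_x_at may include signal from another gene.

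CDKN2B, the neighbouring INK4 gene that encodes p15, gave 68.8, 90.2 and 64.7 in the vehicle arrays with 236313_at. The HGF arrays gave 64.5, 45.4 and 60.3. All 3 HGF arrays were below all 3 vehicle arrays, but the highest HGF array and the lowest vehicle array were only 64.5 and 64.7, and under quantile normalization the groups overlapped. The log2 ratio of this probe set was -0.09, -0.99 and -0.10. The vehicle array of 8 hours was the highest of the vehicle arrays, with a log2 ratio of 0.39 from 2 to 8 hours and -0.48 from 8 to 24 hours. The other probe set, 207530_s_at, was at the floor, so that the gene's mean log2 ratio at 8 hours was -0.4953. This lay just short of the 0.4957 that the fold rule described below asks for, and 236313_at was just short of 2-fold. CDKN2D, the gene of p19, left the floor in 2 arrays with 210240_s_at, which gave 37.0, 22.1 and 30.3 in the vehicle arrays (2, 8 and 24 hours) and 25.2, 29.9 and 13.9 in the HGF arrays. At this level HGF was at least 1.23-fold lower at 2 hours, and both arrays of 8 hours were under the floor.

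The 3 D-type cyclins had different patterns. CCND1, which encodes cyclin D1, was above the floor in all arrays in both of its probe sets. With 208712_at it read 558.8, 805.0 and 556.1 under vehicle after 2, 8 and 24 hours and 684.1, 759.9 and 747.5 under HGF. With 208711_s_at it gave 640.6, 544.6 and 400.6 with vehicle and 831.3, 852.7 and 378.2 with HGF. Both probe sets were higher with HGF at 2 hours, by log2 ratios of 0.29 and 0.38, but they disagreed at 8 hours (-0.08 and 0.65) and at 24 hours (0.43 and -0.08). The gene's mean log2 ratio was 0.33, 0.28 and 0.17, and its HGF and vehicle arrays overlapped. From 2 to 24 hours 208711_s_at had a log2 ratio of -0.68 with vehicle and -1.14 with HGF, whereas 208712_at had -0.01 and 0.13. The ACTB 3'/5' ratio rose over the same hours in both groups, and its part in this difference between the probe sets was not tested.

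CCND3, which encodes cyclin D3, differed most at 8 hours. Its probe set 201700_at gave 335.6, 318.6 and 363.9 in the vehicle arrays (2, 8 and 24 hours) and 296.1, 601.0 and 423.7 in the HGF arrays. The HGF arrays of 8 and 24 hours were above all vehicle arrays and that of 2 hours was below all of them. HGF was 1.89-fold higher at 8 hours, while the log2 ratio was -0.18 at 2 hours and 0.22 at 24 hours. The vehicle arrays differed by log2 ratios of -0.07 to 0.19. A second probe set, 1562028_at, was at the floor, so that the gene's mean log2 ratio at 8 hours was 0.46, and CCND3 passed the fold rule as higher under quantile normalization (0.51) and with centred ratios (0.50). Set against the mean of all vehicle arrays in place of that of 8 hours, which had the lowest poly-A spike, the ratio at 8 hours was 0.41 for CCND3 and 2.47 for CDKN1A.

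**Figure D2:**
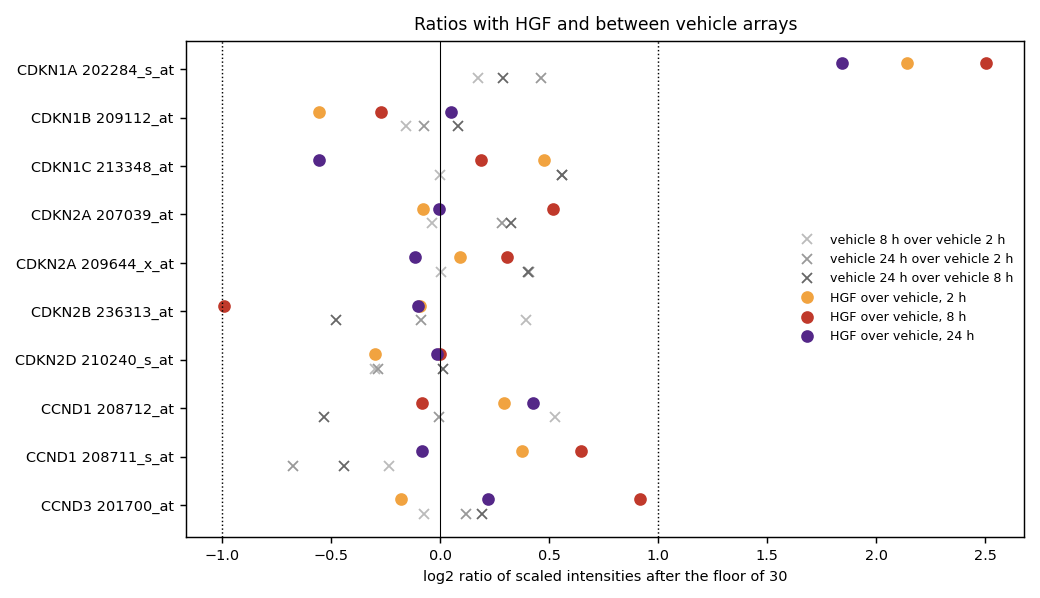
Log2 ratios after the floor of 30 for the 10 probe sets, with HGF over vehicle at 2, 8 and 24 hours as filled points and ratios between vehicle arrays as crosses. Dotted lines mark 2-fold, and CDKN1A is the only probe set past them, at 2.14, 2.50 and 1.84. Ratios of CDKN1C and CDKN2D are bounds, or stand at 0 without meaning where both arrays are at the floor. Only that of CDKN2D for vehicle at 24 over 2 hours was measured.

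Genes were counted by a fold rule, which asks that 1 or more probe sets differ by 2-fold or more and that the mean log2 ratio over the gene's probe sets reach 0.50 in that direction. At 2 hours 1 of 8 members above the floor was higher and 0 were lower, beside 0.817% higher and 0.108% lower among all 10159 genes. At 8 hours 1 of 7 was higher and 0 were lower, against 5.09% and 15.1% of 10460 genes. At 24 hours 1 of 8 was higher and 0 were lower, against 2.01% and 1.08% of 10229 genes. CDKN1A was that member each time. The median log2 ratio of the members above the floor was -0.02, 0.27 and 0.02, while that of all genes counted was -0.04, -0.04 and 0.02.

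Between vehicle arrays 0 of 7, 0 of 8 and 0 of 8 members passed the rule in either direction (8 over 2, 24 over 2 and 24 over 8 hours), where it took 0.919%, 2.52% and 6.2% of all genes. Between HGF arrays the rule took 1 of 7 members each time. CCND3 was higher at 8 than at 2 hours (log2 ratio 0.51), in a comparison where 12.8% of all genes passed. CCND1 was lower at 24 than at 2 hours (-0.50) and than at 8 hours (-0.60), where 4.93% and 6.84% passed, and 208711_s_at alone reached 2-fold. CDKN1A passed the rule in none of these comparisons between times.

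The effect of HGF shared by the 3 times was tested with limma, with the time as a block and the arrays of different times in place of replicates. CDKN1A had a log2 effect of 2.16 (SE 0.18), with HGF higher in 3 of 3 pairs. Its p from limma was 6.99e-05, which ranked 4 of 9982 genes, and the adjusted p was 0.161. At an adjusted p of 0.05 limma called 0% of genes and 0 of 7 members. At an unadjusted p of 0.05 it took 403 genes (4.04%) and 1 member. Without the block the adjusted p of CDKN1A was 0.0251, and with the brightest probe set of each gene 0.0425. Leaving out both arrays of 8 hours, the time of the vehicle array with the lowest poly-A spike, gave CDKN1A an effect of 1.99 and an adjusted p of 0.287 in limma. The adjusted p ranged from 0.0251 to 1 over 9 alternatives, with the effect between 1.99 and 2.32. The other members had shared effects of 0.26 (CCND1, SE 0.13), 0.16 (CCND3, SE 0.16), -0.26 (CDKN1B, SE 0.17), -0.20 (CDKN2B, SE 0.16), 0.08 (CDKN2A, SE 0.14) and 0.01 (CDKN1C, SE 0.13). Their adjusted p from limma was between 0.912 and 0.995.

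By a count that needs no model, 1 of 7 members had all HGF arrays above all vehicle arrays (CDKN1A), where 5.16% of genes did, and 1 of 7 had them below (CDKN2B), where 4.58% did. The other 5 overlapped. The exact two-sided permutation test of 3 against 3 arrays did not keep the pairs of each time. In this permutation test p was 0.1 for CDKN1A and for CDKN2B, and 0.3 for both CCND1 and CDKN1B. Any gene whose groups do not overlap gets 0.1, the smallest p this test can give, so it restates the count above.

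Of CDK4 and CDK6, the kinases that D-type cyclins bind, CDK6 passed the fold rule, as lower at 8 hours. CDK4 (202246_s_at) read 1452, 1215 and 1412 under vehicle after 2, 8 and 24 hours and 1263.5, 1902 and 1464 under HGF. The HGF arrays of 8 and 24 hours were above all vehicle arrays, and the log2 ratio at 8 hours was 0.65, but CDK4 did not pass the rule. The mean of CDK6 at 8 hours fell by at least 0.52 on the log2 scale, with 102.7 for vehicle and 26.2 for HGF in 224847_at. Of 18 CDKs and other cyclins 0 passed the rule at 2 hours, 1 was higher and 3 lower at 8 hours, and 1 was higher at 24 hours. The counts at 8 hours are near the shares over all genes, 5.09% (higher) and 15.1% (lower). Cyclin E1 (CCNE1), which activates CDK2, was higher at 8 and at 24 hours, with 313.6 against 151.6 and 252.1 against 124.8 in 213523_at. Cyclin E2 (CCNE2) fell by at least 1.40 on the log2 scale at 8 hours, and its log2 ratio at 24 hours was 0.64. Its vehicle array of 8 hours was the highest of the vehicle arrays, with log2 ratios of 0.58 from 2 to 8 hours and -1.25 from 8 to 24 hours. The mitotic kinase gene CDK1 was lower at 8 hours (-1.11). This mean includes 231534_at, which was at the floor, and the other probe sets of CDK1 gave -1.28, -1.58 and -1.57.

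Downstream, RB1 (203132_at) gave 151.2, 144.7 and 112.9 in the vehicle arrays (2, 8 and 24 hours) and 139.0, 97.7 and 172.9 in the HGF arrays. A probe set reads RNA and not the RB protein. Of 13 genes of the RB and E2F family 0 passed at 2 hours and 24 hours and 2 were lower at 8 hours, near the 15.1% of all genes. These were the pocket protein genes RBL1 and RBL2, each of which fell by at least 0.60 on the log2 scale. Of 15 E2F target genes 0 passed at any time in either direction. The median log2 ratios at 2, 8 and 24 hours were -0.04, -0.12 and 0.16 for the CDKs and cyclins, -0.01, -0.24 and 0.13 for the RB and E2F family and -0.02, 0.04 and 0.07 for the E2F targets, beside the -0.04, -0.04 and 0.02 of all genes.

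Of the factors known to act at the CDKN1A promoter 2 of 14 above the floor were higher at 2 hours. At 8 hours 2 of 15 were higher and 1 was lower, and at 24 hours 1 of 15 was higher. The medians were -0.01, 0.05 and 0.03. Among all genes 0.817%, 5.09% and 2.01% were higher at these times, and 15.1% were lower at 8 hours. EGR1, an early growth response factor, was higher at every time. In 227404_s_at it read 521.1, 245.6 and 320.0 under vehicle after 2, 8 and 24 hours and 2836, 1412 and 1228 under HGF. KLF6 was higher at 2 hours (0.61), CEBPA at 8 hours (at least 1.11), and SP3, of the Sp family, was lower at 8 hours (-0.53). The means of KLF6 and SP3 include probe sets at the floor in all arrays. In SP3 the probe sets above the floor, 213168_at and 238035_at, gave -1.27 and -1.38 at 8 hours. Of 16 genes of the turnover and control of p27 and D-type cyclins above the floor 1, 2 and 1 were higher at 2, 8 and 24 hours. None was lower at any time, and the medians were -0.07, 0.10 and 0.08. The same shares of all genes apply, with 0.108% lower at 2 hours and 1.08% at 24 hours. JUN, an AP-1 subunit that acts on CCND1, was higher at each time (at least 0.74, 0.69 and at least 0.80), and RNF123, of a ubiquitin ligase for p27, at 8 hours (0.83).

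The genes most like CDKN1A over the 6 arrays, among 8896 genes above the floor in all of them, were JMJD6 (Pearson r 0.995), VPS37B (0.991), HBEGF (0.990), IER2 (0.989) and DUSP6 (0.988). These are correlations across 6 arrays that share 1 cell line, a description in which the step between vehicle and HGF weighs most. DUSP6, a phosphatase that inactivates ERK, had log2 ratios of 1.81, 1.81 and 1.91 at 2, 8 and 24 hours. HBEGF, a ligand of the EGF receptor, had 0.75, 0.67 and 0.66. JMJD6 had 0.44, 0.52 and 0.34. These ratios are gene means in which any probe set at the floor lowers the size, while CDKN1A has only 1 probe set. Their sizes are therefore not compared with that of CDKN1A. For CCND1 the most alike genes were NUP98 (0.998), PREP (0.994), LSG1 (0.993), PVR (0.985) and TSR1 (0.981), with ratios between 0.05 and 0.24. The CCND1 pattern used here is the mean of both its probe sets, which disagreed at 8 and 24 hours, so it need not be that of either.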

How the data were processed

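RNA of 6 conditions was measured on 1 array each. The authors deposited 1 linear intensity for each of 54675 probe sets and array. MAS5 is named in the processing notes of the submitters. Its version is not given in the sources used here, nor is its scaling target. In the methods stand quantile normalization, a mean of 150 and a floor of 30 as well, none of which the deposited arrays show as a set. The deposited mean was 149.1 for vehicle at 24 hours and 186.9 to 205.4 for the other arrays. The mean and the floor were therefore applied here. The number of arrays limits the precision. Groups came from the sample labels. Platform annotation gives 1 symbol to 41097 probe sets, and 6 control probe sets were left out, which leaves 19775 genes. A gene's value is the mean log2 over its probe sets, those at the floor included. Nothing was tested within a time. The shared effect was tested with limma (lmFit and eBayes, Benjamini-Hochberg). It took 9982 genes above the floor in 3 or more arrays with 1 probe set. The steps were also run on simulated data with known changes, the same at each time, and no effect of time. Such a run checks the steps and does not measure how well they find changes in these arrays.

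Members and gene lists were chosen with earlier results of these data known. All members were named, and from the lists RB1, CDK4, CDK6 and up to 4 genes that pass the rule, with 5 genes most like CDKN1A and CCND1, the D-type cyclin with the highest mean value, a choice that sets different probe sets side by side and serves no result. Genes with no single-symbol probe set were not analysed here, and a further gene list and motif are not reported here. Alternatives were no floor (log2 of the value plus 1), a floor of 60, quantile normalization, ratios centred on their median, the brightest probe set, only probe sets above the floor, no _s_at or _x_at probe sets, a reference made of all 3 vehicle arrays, and, in the limma step, a fit without the block, a trend in the variance, no filter on low values and each time left out. Scripts ran in R 4.3.3 with limma 3.58.1 and in Python 3.11.15 with pandas 2.3.3, numpy 2.4.6, matplotlib 3.10.9 and scipy 1.17.1.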

Additional observations from a re-analysis of the deposited data

How the results depend on the processing

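CDKN1A kept its direction and passed the fold rule at 2, 8 and 24 hours in each alternative that measured it, with log2 ratios of 1.93 to 2.18, 2.47 to 2.60 and 1.69 to 2.09. Without _s_at and _x_at probe sets 0 members were higher at 2, 8 and 24 hours, since CDKN1A has only an _s_at probe set. Without a floor 1 member was lower at 2 hours (CDKN2B). In that setting 2 were higher (CDKN1A and CCND3) and 2 lower (CDKN2B and CDKN2D) at 8 hours. At 24 hours 2 were higher in it (CDKN1A and CDKN2D). The calls of CDKN2B and CDKN2D there rest on values near or under 30. So does that of CCND3, where only 1562028_at reached 2-fold, with 1.10 for vehicle and 7.62 for HGF at 8 hours. Under quantile normalization and with centred ratios 2 members were higher at 8 hours (CDKN1A and CCND3), and under quantile normalization 0 members had all HGF arrays below all vehicle arrays. That scaling moved the median log2 ratio of the vehicle array of 24 over 2 hours from -0.17 to 0.00. The limma count was 4 genes and 1 member without the block and 3 genes and 1 member with the brightest probe set, and 0 in the other alternatives, leaving out each time included. Counts of members moved in no other alternative by over 1.5 times. Of 189 single ratios 14 changed sign, all of members that did not pass the rule with the floor of 30, among them CCND1 at 8 hours (0.28 to -0.08 with the brightest probe set or without _s_at and _x_at) and at 24 hours (0.17 to -0.10 against all vehicle arrays), CDKN1B at 24 hours (0.05 to -0.05 under quantile normalization), and CDKN2A at 8 hours (0.27 to -0.06) and CCND3 at 2 hours (-0.09 to 0.05) without a floor. Of 62 shared effects 3 did, for CDKN1C and CDKN2A. The limma fit paired the arrays by time, and a replicate number could not be used since each condition has 1 array. With 1 array per condition a ratio has no replicate error, and levels near the floor limit CDKN1C, CDKN2B, CDKN2D and CCND2.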
